A study of Mus musculus with 23 samples.

Results

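Liver type 1 innate lymphoid cells (ILC1s) that had ever switched on granzyme C were compared with liver ILC1s that had not. The sort read 2 signals, present granzyme C (GzmC) and a fate-map mark (GzmcFM), which stays in a cell after granzyme C is switched off. The marked side held 8 RNA libraries. Of these, 4 came from cells with present expression and the mark (GzmC+GzmcFM+, called DP) and 4 from cells with the mark alone (GzmC-GzmcFM+, called FMSP), both from mice 3, 4, 5 and 6. The unmarked side held 3 libraries of cells with neither signal (GzmC-GzmcFM-, called DN), from mice 2, 4 and 6. These 11 libraries are part of a series of 23, which also has 4 RNA libraries of liver NK cells sorted on an S1pr5eGFP reporter and 8 ATAC-seq libraries. Each RNA library held all cells of 1 population sorted from 1 collagenase-digested liver. The labels give no strain, age or sex, and they do not describe the alleles behind either signal or the surface gate of the RNA sort. A cell can lack the mark because it never made granzyme C or because it made it without being marked, and these cannot be told apart here. P-values of the main fit rest on the spread between libraries of the same population, pooled over DP, FMSP, DN and NK. That fit had no mouse term and took DP and FMSP libraries as independent, although they came from the same mice. Mice 4 and 6 alone gave both a DN and a marked library.

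ILC1s are tissue-resident relatives of natural killer (NK) cells. Both make interferon gamma and carry cytotoxic granules, in which perforin opens the target membrane and granzymes, a family of serine proteases, enter and cleave proteins that trigger cell death. Circulating NK cells need the T-box transcription factor Eomes and carry Ly49 receptors and the egress receptor S1pr5, while liver ILC1s are known for T-bet, Cxcr6, the integrin subunit CD49a (Itga1) and the death ligand TRAIL (Tnfsf10). Gzmc and Gzmb lie in a cluster with the mast cell protease genes.

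Depth over the 11 ILC1 libraries ran from 51641248 to 73309063 counts (median 62857384), in which 14713 to 20057 genes had a count. Levels below are CPM, counts relative to the TMM-scaled library size. NK-receptor and ILC1 genes were present in every ILC1 library, with Ncr1 at 730 to 1988 CPM and Cxcr6 at 576 to 1642 CPM. DN of mouse 2 stood apart from the other 14 RNA libraries. In it 336 genes reached 10 CPM and lay more than 10 times above every other library, and they took 5.03% of its counts. The other libraries had 0 to 29 such genes, with the 29 in NK of mouse 1, and at most 0.624% of counts in them. Among the 336 were 16 genes known from the early embryo, chosen after their values were seen. Cer1, a secreted Nodal antagonist, stood at 3792 CPM in DN of mouse 2 and at most 2.62 CPM elsewhere. Lefty1, another Nodal antagonist, stood at 3373 against at most 5.34 CPM. Sox17, an endoderm transcription factor, stood at 624 against at most 7.19 CPM. Over the 16 genes DN of mouse 2 ranged from 31.3 to 3792 CPM, and no other DN library passed 2.59 CPM. The same library held Ncr1 at 730 and Klrb1c, the gene of NK1.1, at 934 CPM. Mouse 2 gave only this library, so mouse and library cannot be told apart. The main results that rest on it are given with and without it, and other values use all DN libraries unless stated. Libraries of mice 1 to 3 also differed from those of mice 4 to 6 in the summed level of 16 glycolysis genes. It was 14494 CPM in DN of mouse 2 and 9706 CPM in NK of mouse 1. FMSP and DP of mouse 3 held 10085 and 9061 CPM, and every library of mice 4 to 6 held 4707 to 6182 CPM. The fit of mice 4 to 6 alone leaves out mice 1 to 3. What set these mice apart was not tested.

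**Figure D1:**
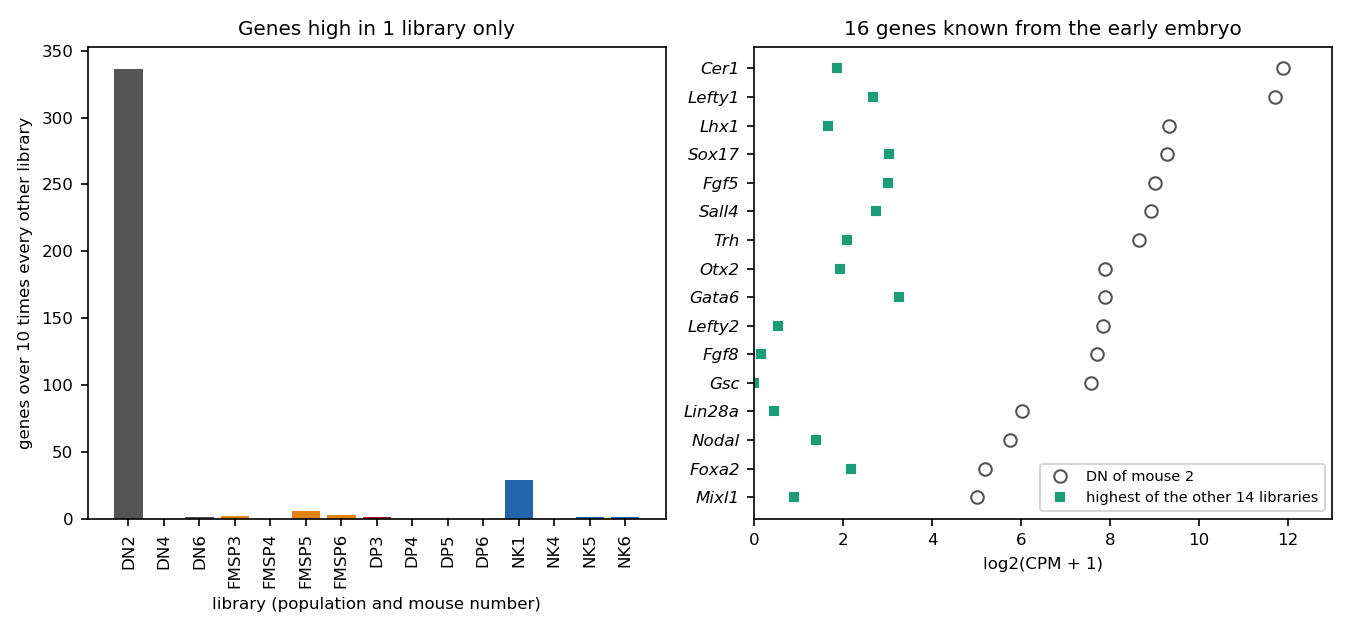
Left, number of genes per library that reached 10 CPM and lay over 10 times above all other libraries (bars: grey DN, orange FMSP, red DP, blue NK). Right, level of 16 early-embryo genes, log2(CPM + 1), in DN of mouse 2 (open circles) and in the highest other library (squares). DN of mouse 2 holds 336 such genes, and the next library, NK of mouse 1, holds 29.

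The 250 bases upstream of the RefSeq start site (build GRCm38.p6) are shown for 6 genes that carry the comparison. Gzmc and Gzmb were higher in marked cells, Eomes and Cma1 were lower, and Ccnb2 and Top2a stand for the cell cycle genes among the lower ones. Each runs 5′ to 3′ on the gene's strand. For Gzmc, Gzmb, Eomes and Cma1 capitals mark matches on either strand to a Runx site (TGTGGT), an AP-1 site (TGANTCA) or a T-box site (GGTGTGA). For Ccnb2 and Top2a capitals mark a CCAAT box (CCAAT) or a CHR element (TTTGAA), a promoter element of cell cycle genes.
Gzmc, chr14:56234658-56234907, minus strand: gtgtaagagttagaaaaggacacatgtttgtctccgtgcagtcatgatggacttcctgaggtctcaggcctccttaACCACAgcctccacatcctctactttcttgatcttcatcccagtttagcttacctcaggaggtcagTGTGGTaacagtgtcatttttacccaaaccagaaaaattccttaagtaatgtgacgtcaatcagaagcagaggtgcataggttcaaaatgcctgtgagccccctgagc
Gzmb, chr14:56262335-56262584, minus strand: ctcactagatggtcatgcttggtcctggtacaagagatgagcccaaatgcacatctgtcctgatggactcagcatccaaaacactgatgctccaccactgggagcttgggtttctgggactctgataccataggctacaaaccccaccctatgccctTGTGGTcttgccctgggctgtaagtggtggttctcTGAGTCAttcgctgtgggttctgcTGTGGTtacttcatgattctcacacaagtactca
Eomes, chr9:118477939-118478188, plus strand: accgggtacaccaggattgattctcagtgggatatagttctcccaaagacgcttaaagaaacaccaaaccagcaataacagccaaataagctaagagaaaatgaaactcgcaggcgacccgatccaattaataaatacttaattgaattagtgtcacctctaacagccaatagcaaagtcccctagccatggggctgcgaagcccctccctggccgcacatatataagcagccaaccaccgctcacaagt
Cma1, chr14:55944676-55944925, minus strand: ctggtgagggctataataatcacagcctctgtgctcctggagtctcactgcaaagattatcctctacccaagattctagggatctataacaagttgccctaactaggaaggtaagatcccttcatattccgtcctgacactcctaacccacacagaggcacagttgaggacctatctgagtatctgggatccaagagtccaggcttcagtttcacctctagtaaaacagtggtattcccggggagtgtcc
Ccnb2, chr9:70421555-70421804, minus strand: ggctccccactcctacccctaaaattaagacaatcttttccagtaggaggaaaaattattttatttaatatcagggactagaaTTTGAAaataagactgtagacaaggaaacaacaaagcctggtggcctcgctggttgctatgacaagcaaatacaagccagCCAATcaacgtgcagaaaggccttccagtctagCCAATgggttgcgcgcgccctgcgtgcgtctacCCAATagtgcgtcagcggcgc
Top2a, chr11:99024190-99024439, minus strand: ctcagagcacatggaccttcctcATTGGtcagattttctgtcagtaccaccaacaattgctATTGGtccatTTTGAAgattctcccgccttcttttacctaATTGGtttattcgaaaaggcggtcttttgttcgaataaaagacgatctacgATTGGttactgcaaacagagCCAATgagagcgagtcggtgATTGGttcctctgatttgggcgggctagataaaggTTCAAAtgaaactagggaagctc
The Gzmc window lies inside the annotated span of the gene. The Gzmc and Gzmb windows each hold 2 Runx matches, and Gzmb holds an AP-1 match 58 to 52 bases before the start. Of 27025 promoters of this length, 15.9% hold the Runx letters, 7.82% the AP-1 letters and 3.84% the T-box letters. The windows of Eomes and Cma1 hold none of these letters. Ccnb2 holds 3 CCAAT boxes and Top2a 6, against at least 1 in 37.5% of promoters. At least 1 CHR match is in 18.3% of promoters, and Top2a holds 2.

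Of 17124 genes tested, 41 differed between marked and DN ILC1s (0.239%, edgeR quasi-likelihood test, adjusted p below 0.05). In marked cells 5 of them were higher (0.0292% of genes tested) and 36 lower (0.21%). The higher genes were led by the granzymes Gzmc and Gzmb. The lower ones held NK cell genes such as Eomes, Cma1, Klra4 and S1pr5, and genes of cell division such as Top2a, Ccnb2 and Cdk1. In 35 of the 41 the 8 marked and the 3 DN libraries did not overlap, against 2.68% of all genes tested. The 41 were called on these libraries, so nothing is read from that share. The median over all genes was -0.07 on the log2 scale. Without DN of mouse 2, 14 genes were called (0.0759% of 18447), of which 13 were among the 41. Within mice 4 to 6 alone, 37 were called (0.204% of 18125), 18 of them among the 41. A fixed block for the mouse left 22 calls, 11 of them among the 41, and the mouse as a random effect in limma gave 90, 25 of them among the 41. Lower in marked cells were 12 of the 14, 26 of the 37, 16 of the 22 and 63 of the 90. The count also rested on other libraries. It was 81 without DN of mouse 4 and 120 without DN of mouse 6, 20, 21 and 24 without FMSP of mice 4, 5 and 6, and 17, 18 and 26 without DP of mice 4, 5 and 6. A fit of the 11 ILC1 libraries alone called 2 genes, Gramd3 and Gzmc.

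**Figure D2:**
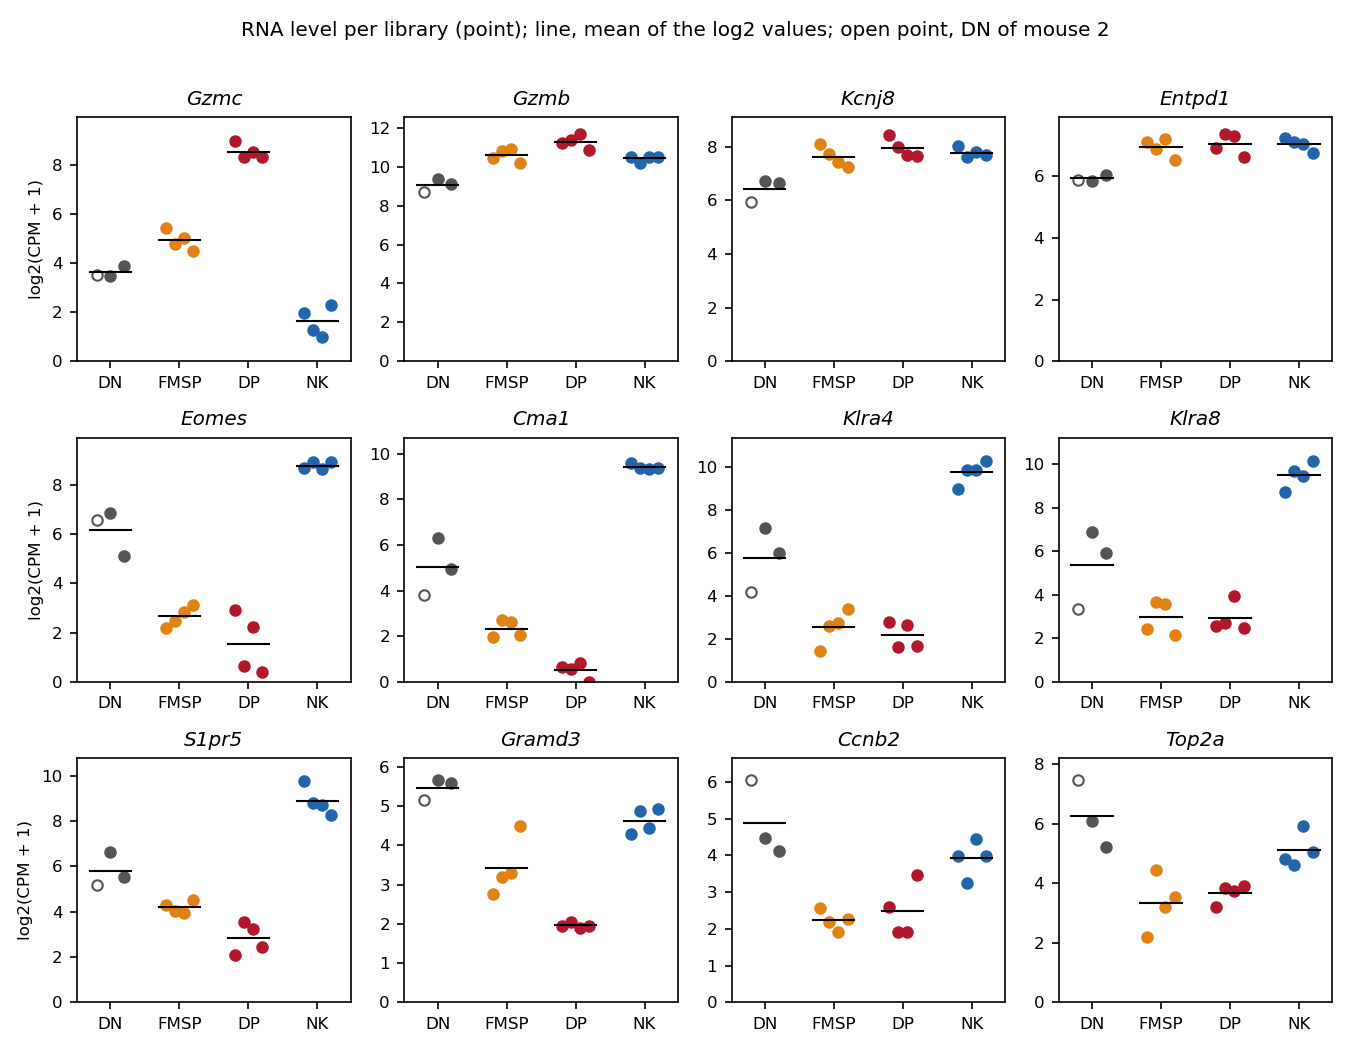
Level of 12 genes, log2(CPM + 1), with 1 point per library and the group mean of the log2 values as a line. DN of mouse 2 is the open point, and axes start at 0. Gzmc and Gzmb lie higher in FMSP and DP than in DN. Eomes, Cma1, Klra4 and S1pr5 lie lower in FMSP and DP than in DN, and highest in NK. The NK cells were sorted on an S1pr5eGFP reporter. Ccnb2 and Top2a have their highest point in DN of mouse 2.

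Gzmc, whose expression defined the sort, followed the labels. It stood at 10.5, 10.2 and 13.6 CPM in DN of mice 2, 4 and 6, at 42.0, 26.4, 31.3 and 21.8 CPM in FMSP of mice 3 to 6, and at 496, 320, 360 and 320 CPM in DP of the same mice. The 3 populations did not overlap. The difference between marked and DN cells was 3.22 ± 0.41 on the log2 scale (SE, adjusted p = 0.00419, edgeR), which the sort on present expression set in part. FMSP and DN cells were both sorted as GzmC-. NK cells held 1.01 to 3.92 CPM, below DN (2.31 ± 0.39, adjusted p = 0.00323). Gzmc in FMSP exceeded that in DN by 1.41 ± 0.39 (unadjusted p = 0.0028 and adjusted p = 0.504, edgeR), without overlap. DP exceeded FMSP by 3.62 ± 0.39 (adjusted p = 0.00246), and Gzmc was the only gene called between these marked populations (0.00584% of genes tested, edgeR), where 769 genes had an unadjusted p below 0.05.

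Gzmb, the granzyme best known for cleaving caspases, was the other granzyme that rose. It stood at 412, 654 and 558 CPM in DN, 1371, 1804, 1909 and 1155 CPM in FMSP, and 2388, 2661, 3243 and 1878 CPM in DP. Every marked library lay above every DN library, and NK cells, at 1176 to 1463 CPM, lay within the FMSP range. Marked cells held 2051 ± 685 CPM (SD, n = 8) and DN cells 541 ± 122 CPM (SD, n = 3), a log2 difference of 1.88 ± 0.23 (adjusted p = 0.00398, edgeR). It was 1.71 without DN of mouse 2 (adjusted p = 0.0193) and 1.62 with a mouse block (0.0184). DN cells held less Gzmb than NK cells, by 1.35 ± 0.24 log2 (adjusted p = 0.0054), while marked and NK cells differed by 0.53 ± 0.19 (adjusted p = 0.16).

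Gzmb lies at chr14:56258836-56262334 and Gzmc at chr14:56231397-56241647, 17188 bases apart, and Cma1 lies at chr14:55941451-55944675, 286721 bases from Gzmc. Cma1 encodes a chymase and moved the opposite way to both granzymes. It stood at 13.2, 79.3 and 30.3 CPM in DN, 2.91 to 5.61 CPM in FMSP and 0 to 0.767 CPM in DP. No marked library reached any DN library, and NK cells held 633 to 777 CPM. The log2 difference of marked from DN cells was -4.87 ± 0.58 (adjusted p = 0.003, edgeR), -5.30 without DN of mouse 2 and -5.30 with the mouse as a block. Of 14 granzyme and mast cell protease genes of the cluster, 4 passed the filter on low counts. The fourth, Mcpt8, a basophil protease, was at or below 2.06 CPM in all ILC1 libraries.

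Of 18 genes of cytotoxic granules tested, Gzmb was the only one called (edgeR), with a list median of 0.50 against -0.07 over all genes. Without DN of mouse 2 the list median was 0.36 against 0.01. The mouse as a random effect in limma called Gzmb and Cst7. In 9 of the 18 (50%) the marked library lay above DN in all 4 ratios within mice 4 and 6, against 12.5% of all genes. In 4 (22.2%) it lay below DN in all 4 ratios, against 13.8%. All marked libraries lay above DN of mice 4 and 6 in 4 genes (22.2%), against 4.46% of all genes. They all lay below in 2 (11.1%), against 4.1%. Prf1, the gene of perforin, stood at 405 to 515 CPM in DN and 328 to 709 CPM in marked libraries, with a log2 difference of 0.06 ± 0.29 (adjusted p = 0.999, edgeR). Gzma stood at 674 to 1819 CPM in DN and 713 to 4027 CPM in marked libraries (adjusted p = 0.784). Cst7, an inhibitor of the cathepsins that activate granzymes, stood at 162 to 177 CPM in DN and 215 to 465 CPM in marked libraries. These did not overlap, at 0.94 ± 0.21 log2 (adjusted p = 0.0886, edgeR, and 0.0287 with the mouse as a random effect in limma).

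The other 3 higher genes were Kcnj8, Hivep3 and Entpd1. Kcnj8, a pore subunit of ATP-sensitive potassium channels, stood at 60.3, 104 and 99.9 CPM in DN, 152 to 276 CPM in FMSP and 202 to 347 CPM in DP. Entpd1 encodes CD39, an enzyme that degrades extracellular ATP. It stood at 58.3, 56.8 and 65.2 CPM in DN, 90.9 to 148 CPM in FMSP and 98.7 to 166 CPM in DP. Hivep3, a zinc finger transcription factor, stood at 21.9, 39.3 and 48.2 CPM in DN, 68.6 to 85.1 CPM in FMSP and 80.7 to 96.8 CPM in DP. The marked libraries of all 3 genes lay above the DN libraries without overlap. The log2 differences were 1.35 ± 0.26 for Kcnj8 (adjusted p = 0.0426, edgeR), 1.17 ± 0.22 for Hivep3 and 1.11 ± 0.21 for Entpd1 (adjusted p = 0.0481 for each). Without DN of mouse 2 they were 1.14, 0.90 and 1.08 and none was called (adjusted p = 0.295, 0.252 and 0.267). With 1 ILC1 library left out at a time, Kcnj8 was called in 0 of 11 fits, Hivep3 in 1 and Entpd1 in 2 (edgeR). In the blocked fit Kcnj8 was called (0.95, adjusted p = 0.0367), and Hivep3 and Entpd1 were not (adjusted p = 0.0855 and 0.153). With the mouse as a random effect in limma all 3 were called, at 1.18, 1.15 and 1.02 (adjusted p = 0.0106, 0.0106 and 0.0229). Kcnj8 and Entpd1 in NK cells, at 195 to 255 and 108 to 149 CPM, lay among the marked libraries, and Hivep3 in NK cells, at 28.0 to 36.3 CPM, among the DN libraries.

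NK cell genes made up 6 of the 11 lower genes that were also called without DN of mouse 2. Of 19 genes of conventional NK cells tested, 7 were lower in marked cells and none higher, with a median log2 difference of -1.76 against -0.07 over all genes. Among the 7 were Cma1, Eomes, Klra4, Klra8, S1pr5 and Klra1. Without DN of mouse 2, 6 of the 19 were lower, and within mice 4 to 6 it was 10. Over all genes tested, 36 of 17124 were lower in the main fit. It was 12 of 18447 without DN of mouse 2 and 26 of 18125 within mice 4 to 6. In 11 of the 19 (57.9%) all marked libraries lay below DN of mice 4 and 6, against 4.1% of all genes tested. The list was written with earlier results of these data known, so this share is a description. In a bulk sample, fewer cells of a type and less RNA per cell cannot be told apart, and this holds for all genes below. The NK cell list is itself a marker list of another cell type. Its summed level was 2610 to 4928 CPM in DN, 2056 to 5362 CPM in marked cells and 23727 to 30325 CPM in NK cells, and none of its markers was at 0 in DN. A sum follows the most abundant genes. The mean log2(CPM + 1) over the list was 5.67, 7.35 and 6.45 in DN of mice 2, 4 and 6. It was 4.43 to 5.37 in marked libraries, without overlap, and 9.30 to 9.50 in NK cells. How many NK cells the DN sort held was not tested.

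Eomes, the T-box factor that sets NK cells apart from liver ILC1s, stood at 93.3, 115 and 33.7 CPM in DN of mice 2, 4 and 6. It stood at 3.55, 4.58, 6.24 and 7.61 CPM in FMSP and at 6.62, 0.553, 3.68 and 0.316 CPM in DP of mice 3 to 6, and at 396 to 480 CPM in NK cells. Every DN library lay above every marked library and below every NK library. The log2 difference of marked from DN cells was -4.36 ± 0.60 (adjusted p = 0.00691, edgeR), and -4.25 without DN of mouse 2 (adjusted p = 0.0238). In the fixed block it was -4.75 and not called (adjusted p = 0.121), and with the mouse as a random effect in limma it was -4.64 and called (adjusted p = 0.0106). Eomes is also known from the early embryo, and its level in DN of mouse 2 was within the range of the other DN libraries. Tbx21, the gene of T-bet, stood at 416 to 573 CPM in DN and 504 to 1059 CPM in marked libraries, which overlapped (0.45 ± 0.31 log2, adjusted p = 0.689). Of 37 lymphocyte transcription factor genes tested, Eomes and Lef1 were lower, against 0.21% of all genes, and none was higher.

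Ly49 receptors bind class I molecules of the major histocompatibility complex. Klra4 stood at 17.0, 145 and 63.1 CPM in DN and at 1.70 to 9.69 CPM in marked libraries, without overlap, with a log2 difference of -4.02 ± 0.52 (adjusted p = 0.0044, edgeR). Klra8, the gene of the activating receptor Ly49H, stood at 9.10, 116 and 59.5 CPM in DN and 3.42 to 14.2 CPM in marked libraries. DN of mouse 2 lay inside the marked range there (-3.04 ± 0.55, adjusted p = 0.0352). Without DN of mouse 4 it was -2.20 and not called (adjusted p = 0.117), nor was it called with the mouse as a random effect in limma (-3.51, adjusted p = 0.0776). Klra1 stood at 41.7, 70.8 and 25.9 CPM in DN, at 11.1 to 25.9 CPM in FMSP and at 3.23 to 8.38 CPM in DP. The highest FMSP and the lowest DN library met at 25.9 CPM, with a log2 difference of -2.25 ± 0.38 (adjusted p = 0.0267). It was not called without DN of mouse 2 (0.0974) or of mouse 4 (0.0752, edgeR). Klra9 went the other way without being called, at 59.8 to 232 CPM in DN and 146 to 635 CPM in marked libraries (adjusted p = 0.286). Of 26 genes of the Ly49, NKG2 and NKR-P1 receptors tested, 3 were lower, against 0.21% of all genes, and none was higher. The list median was 0.18 against -0.07 over all genes, with 9 genes below 0. Without DN of mouse 2 the median was -0.28, with 19 of the 26 below 0, and 2 were lower. Reads shared between near-identical Ly49 genes may have been split by the counting, so these values are uncertain.

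Of 12 genes of tissue egress tested, 2 were lower with all DN libraries, 3 without DN of mouse 2 and 6 within mice 4 to 6. Over all genes tested, 36 of 17124, 12 of 18447 and 26 of 18125 were lower in these fits. S1pr5, a sphingosine 1-phosphate receptor that guides NK cells into the blood, stood at 34.7, 99.8 and 45.5 CPM in DN, 14.2 to 21.8 CPM in FMSP and 3.24 to 10.8 CPM in DP. The marked and DN libraries did not overlap. NK cells, which were sorted on an S1pr5eGFP reporter, held 310 to 872 CPM, so the sort can have set part of that level. The log2 difference was -2.46 ± 0.37 (adjusted p = 0.0125, edgeR). It was also called without DN of mouse 2 (adjusted p = 0.0112) and in the blocked fit (0.0368). Klf2, the transcription factor that drives S1pr1, stood at 152 to 224 CPM in DN and 15.6 to 122 CPM in marked libraries. Its log2 difference was -1.77 ± 0.36 (adjusted p = 0.0643), -2.25 within mice 4 to 6 (adjusted p = 0.00235) and -2.37 in the blocked fit (adjusted p = 0.013). Ly6c2 stood at 205 to 217 CPM in DN and 13.5 to 189 CPM in marked libraries. It was called within mice 4 to 6 (adjusted p = 0.0447) and with the block (0.0307), but not with all libraries (0.0995, edgeR).

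Gramd3, a GRAM domain protein gene, was lower in marked cells under every fit named here. It stood at 34.7, 50.1 and 47.0 CPM in DN, 5.78, 8.24, 8.76 and 21.4 CPM in FMSP, and 2.75 to 3.13 CPM in DP. The log2 difference was -2.96 ± 0.32 (adjusted p = 0.00134, edgeR), -3.10 without DN of mouse 2 and -2.88 in the blocked fit, called in both. Its level in NK cells, 18.7 to 29.3 CPM, lay below all DN libraries, so it did not follow the order of the NK cell genes. Sh2d1a, the gene of the adaptor SAP of SLAM family receptors, stood at 22.7, 40.0 and 19.9 CPM in DN and 1.45 to 5.03 CPM in 7 marked libraries, with 16.2 CPM in FMSP of mouse 6. Its log2 difference was -2.59 ± 0.48 (adjusted p = 0.0368), and 0.137 without DN of mouse 2. Lef1, a Wnt-responsive transcription factor, stood at 100, 51.8 and 39.2 CPM in DN and 9.62 to 27.9 CPM in marked libraries (-1.73 ± 0.30, adjusted p = 0.0295, and 0.324 without DN of mouse 2).

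A few lower genes were almost absent from marked cells. Rhpn1 stood at 12.6, 5.23 and 3.91 CPM in DN, with 1595 counts, and had 1 count over all 8 marked libraries. The ratio was 3549 with a 95% exact counting interval from 637 to 140194, which covers counting error only (adjusted p = 8.25e-05, edgeR, and 0.0112 with a mouse block). Klhl30 had 1448 counts in DN, a mean of 6.07 CPM with 0.0489 CPM in mouse 6, and none in marked libraries. At a floor of 3 counts over these libraries it was at least 992-fold lower, and at least 343-fold without DN of mouse 4. Anxa8 had 622 counts in DN, none of them in mouse 2, and 3 in marked libraries. Clip4 and Kcnc1 had means of 3.13 and 2.22 CPM in DN and 0.0127 and 0.00952 CPM in marked cells. NK cells held Rhpn1 at 21.9 to 52.4 and Klhl30 at 28.5 to 73.0 CPM. Klhl30 and Anxa8 were not called in the blocked fit (adjusted p = 0.346 and 0.0617), nor were Clip4 and Kcnc1 (0.106 and 0.152). With the mouse as a random effect in limma Clip4 and Kcnc1 were called (adjusted p = 0.000853 and 0.00191), and Klhl30 and Anxa8 were not (0.106 and 0.101). These 4 genes were named after their values were seen.

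Genes of cell division were the other large group among the lower genes, and with edgeR on all mice none was called without DN of mouse 2. All 30 cell cycle genes tested lay below 0, and 6 were called, namely Top2a, Ccnb2, Stmn1, Rrm2, Cdk1 and Birc5. Over all genes tested 0.21% were called lower. The list median was -2.68 against -0.07 over all genes, with -2.59 for DP and -2.90 for FMSP. In FMSP 18 of the 30 lay below all DN libraries, against 2.55% of all genes. Top2a, the topoisomerase that untangles replicated DNA, stood at 177, 67.6 and 36.6 CPM in DN of mice 2, 4 and 6 and at 3.64 to 20.9 CPM in marked libraries. Ccnb2, cyclin B2, stood at 65.3, 21.4 and 16.4 CPM in DN and 2.74 to 10.1 CPM in marked libraries. Stmn1, a microtubule regulator, stood at 426, 202 and 89.2 CPM in DN and 25.9 to 67.8 CPM in marked libraries. The 3 genes did not overlap, and DN of mouse 2 was the highest library of each. The log2 differences were -3.04 ± 0.46 for Top2a, -2.96 ± 0.46 for Ccnb2 and -2.44 ± 0.38 for Stmn1 (adjusted p = 0.0125, 0.0131 and 0.0131, edgeR).

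Without DN of mouse 2 the cell cycle median was -1.54 against 0.01 over all genes, 28 of 30 lay below 0, and none was called. Top2a was then at -2.20 (adjusted p = 0.182), Ccnb2 at -2.10 (0.257) and Stmn1 at -1.73 (0.193, edgeR). Within mice 4 to 6 the median was -1.98 and Stmn1 was called (-1.98, adjusted p = 0.0451). In the fixed block the median was -2.01 and none was called. With the mouse as a random effect in limma all 30 lay below 0, the median was -2.29, and 5 were called, namely Top2a (-2.49, adjusted p = 0.0287), Ccnb2 (-2.47, 0.0379), Cdk1 (-2.27, 0.0382), Stmn1 (-2.10, 0.0171) and Rrm2 (0.0399). In 15 of the 30 (50%) all marked libraries lay below DN of mice 4 and 6, against 4.1% of all genes. In 23 of the 30 (76.7%) DN exceeded the marked library in all 4 ratios within mice 4 and 6, against 13.8% of all genes. The summed level of the list was 3637 CPM in DN of mouse 2, 1472 and 1024 CPM in DN of mice 4 and 6, 676 to 1022 CPM in marked cells and 957 to 1379 CPM in NK cells. The mini-chromosome maintenance genes Mcm2 to Mcm6 and Pcna, which act in DNA replication, differed least, from -0.28 to -0.57 and none called. Mki67, the proliferation marker Ki-67, stood at 56.7, 53.4 and 33.7 CPM in DN and 0.357 to 15.1 CPM in marked libraries, without overlap (-2.50 ± 0.72, adjusted p = 0.179).

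**Figure D3:**
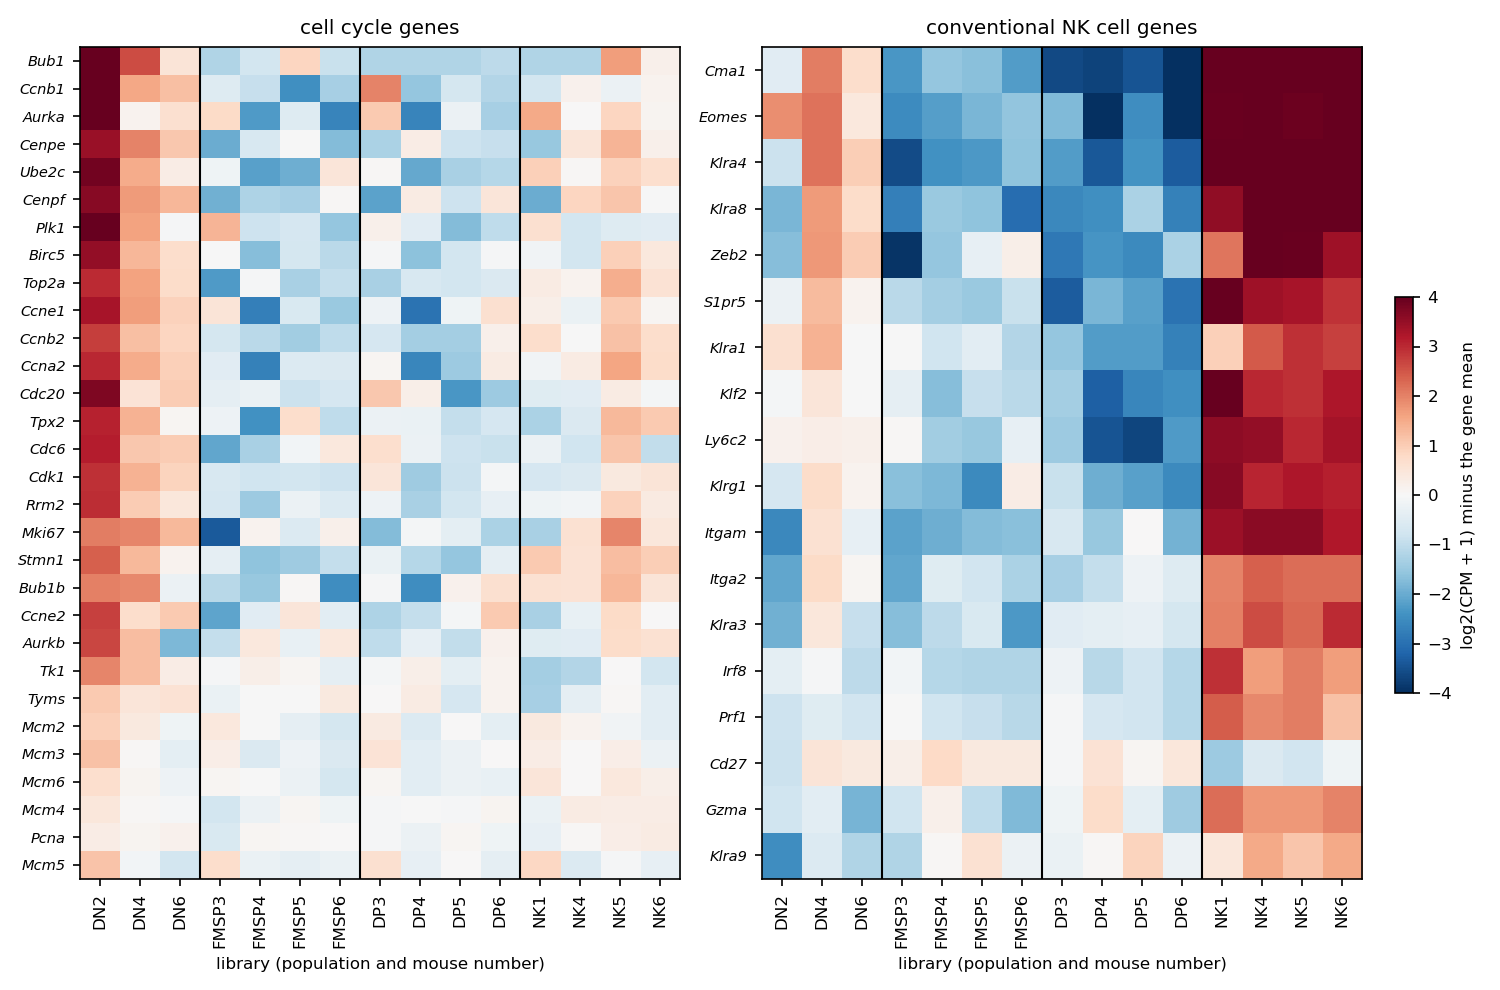
Cell cycle genes (left, 30) and conventional NK cell genes (right, 18 of the 19) by library. Colour is log2(CPM + 1) minus the gene's mean over 15 libraries, and genes are ordered by the difference of marked from DN cells. Cell cycle genes are reddest in DN of mouse 2 and paler in DN of mice 4 and 6, and the upper NK cell genes are intermediate in DN between marked and NK libraries.

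Of the 24 cell cycle genes with a promoter sequence, 19 (79.2%) hold a CCAAT box in the 250 bases and 7 (29.2%) a CHR match, as seen in the Ccnb2 and Top2a windows above. The shares over all promoters were 37.5% and 18.3%. Of 36 lower genes, 29 had a promoter sequence, and 18 of them (62.1%) hold a CCAAT box.

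Of the 41 genes, 4 belonged to the 336 that were high in DN of mouse 2 alone. Among them were Emb, Dkk1 and Tead2. Emb, the adhesion protein embigin, stood at 3004 CPM in DN of mouse 2, 90.7 and 110 CPM in DN of mice 4 and 6, and 5.63 to 32.3 CPM in marked libraries. It still did not overlap without mouse 2, but the log2 difference went from -5.52 to -2.11 (adjusted p = 0.257). Dkk1, Tead2 and Sgk1 overlapped between marked cells and DN of mice 4 and 6. In 22 of the 36 lower genes DN of mouse 2 was the highest DN library. Other lower genes were Nek2, Spc25, Cdca3, Pclaf, Prc1 and Racgap1, known from cell division, and Sgk1, Jpt2, Serpine2, Nck2 and Borcs7, and none of these 11 was called without DN of mouse 2. Of the genes in this paragraph all but Emb, Nek2, Spc25, Cdca3 and Jpt2 were named after their values were seen. The part of the early-embryo genes in these results was not tested.

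With DN of mice 4 and 6 alone, 37 of the 41 genes did not overlap with the 8 marked libraries. They were 32 of the 36 lower genes, against 4.1% of all genes, and all 5 higher genes, against 4.46%. In 33 lower genes and all 5 higher genes the 4 ratios of a marked library over DN of the same mouse went the same way. Over all genes 13.8% were lower and 12.5% higher in all 4. The same libraries had named the 41, so these counts are a description and nothing is read from them. The 13 genes also called without DN of mouse 2 included Gzmc, Gzmb, Eomes, Cma1, Klra4, Klra8, S1pr5, Gramd3, Rhpn1, Anxa8, Clip4 and Kcnc1. The gene added was Rasgrp2, which activates integrins through Rap1 (-1.14, adjusted p = 0.0257, edgeR, against -0.70 and 0.427 with all DN libraries).

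**Figure D4:**
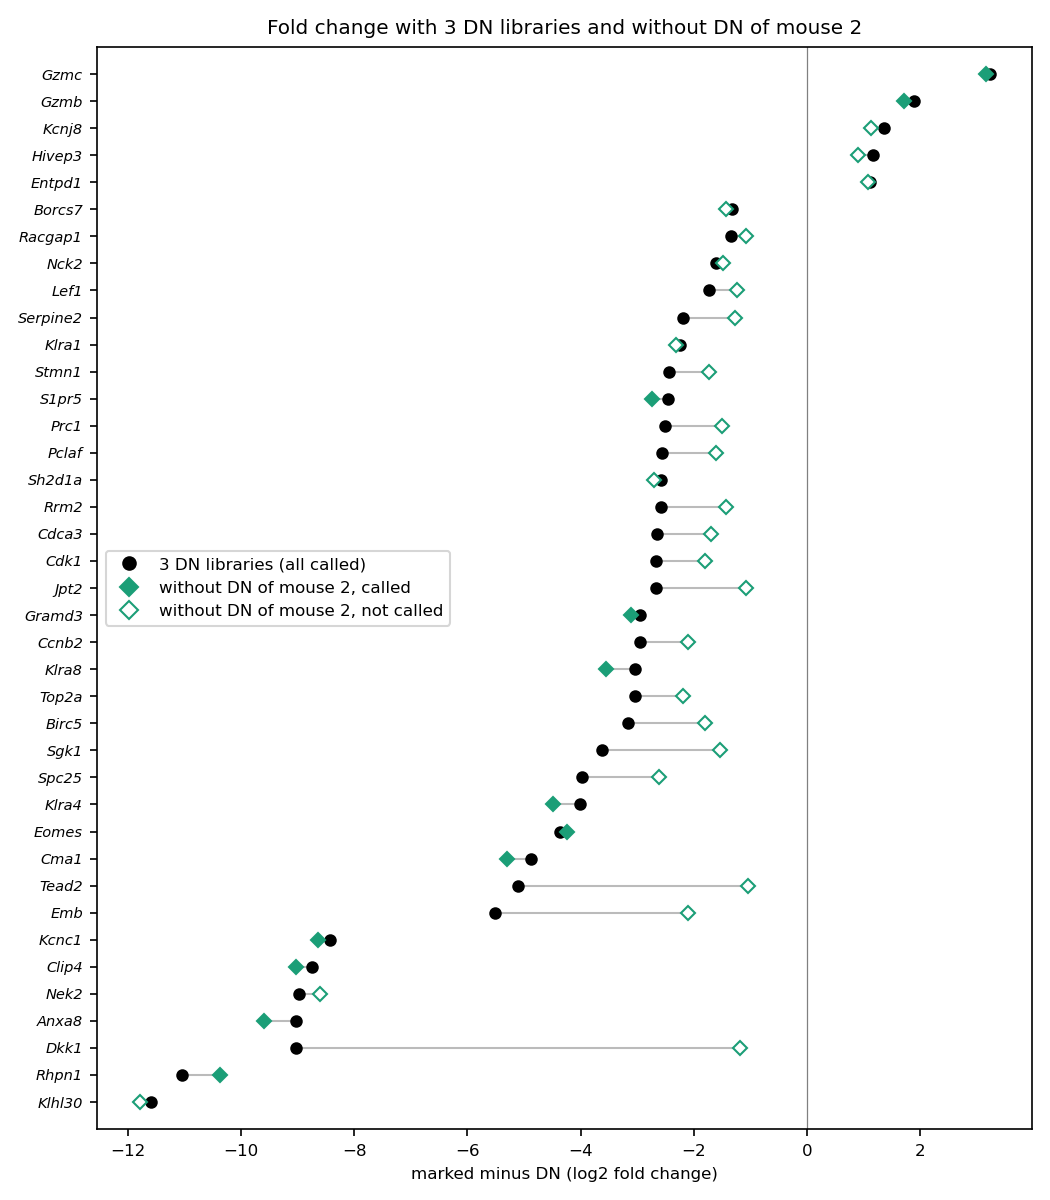
Log2 difference of marked from DN cells for 39 of the 41 genes with all 3 DN libraries (black circles) and without DN of mouse 2 (diamonds, filled where called). Gzmc, Gzmb and Eomes hardly move, while the cell cycle genes move toward 0 and Emb, Tead2 and Dkk1 move far toward 0. Fitted values of genes with almost no counts in marked cells, below about -8, depend on the prior count.

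The question of what held in both marked populations was asked of each separately. Both comparisons share the DN libraries, so their overlap has no test. DP differed from DN in 10 genes (0.0584%), 2 higher (0.0117%) and 8 lower (0.0467%), with 1754 at an unadjusted p below 0.05. FMSP differed from DN in 1 gene (0.00584%, edgeR), with 1164 at an unadjusted p below 0.05. That gene, Rhpn1, was the only one called in both in the main fit. With the mouse as a fixed block Rhpn1 was not called in both. Each of the 41 genes had the same sign and an unadjusted p below 0.05 in both comparisons. The pooled test that named the 41 took the mean of these comparisons on the same libraries, so nothing is read from that count. In 30 of the 41, DP and FMSP lay within 1 of each other on the log2 scale, a description without a share over all genes. In 10 the unadjusted p between them was below 0.05, and of these Gzmc alone was called.

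Among those 10, DP lay farther from DN than FMSP in all but Clip4. Gzmb differed from DN by 2.23 ± 0.25 in DP and 1.53 ± 0.25 in FMSP (adjusted p = 0.00133 and 0.105, edgeR). With the mouse as a random effect in limma 11 genes were called in both populations, Gzmb and Gramd3 among them, at 1.40 and -2.20 in FMSP (adjusted p = 0.0111 for each). Cma1 differed by -6.46 ± 0.82 in DP and -3.29 ± 0.71 in FMSP, Gramd3 by -3.92 ± 0.41 and -1.99 ± 0.39, and S1pr5 by -3.16 ± 0.47 and -1.77 ± 0.45. Eomes was closer, at -4.85 ± 0.80 and -3.88 ± 0.77, and Klra8 was at -3.07 ± 0.69 and -3.01 ± 0.69. Ccnb2 was at -2.73 ± 0.57 in DP and -3.19 ± 0.58 in FMSP. S100a6, a calcium-binding protein gene, was called in both populations with the mouse as a block (1.26 and 1.03 log2) and within mice 4 to 6 (1.27 and 1.05). It stood at 212, 222 and 236 CPM in DN, 443 to 929 CPM in FMSP and 494 to 1098 CPM in DP. S100a6 was named after its values were seen.

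**Figure D5:**
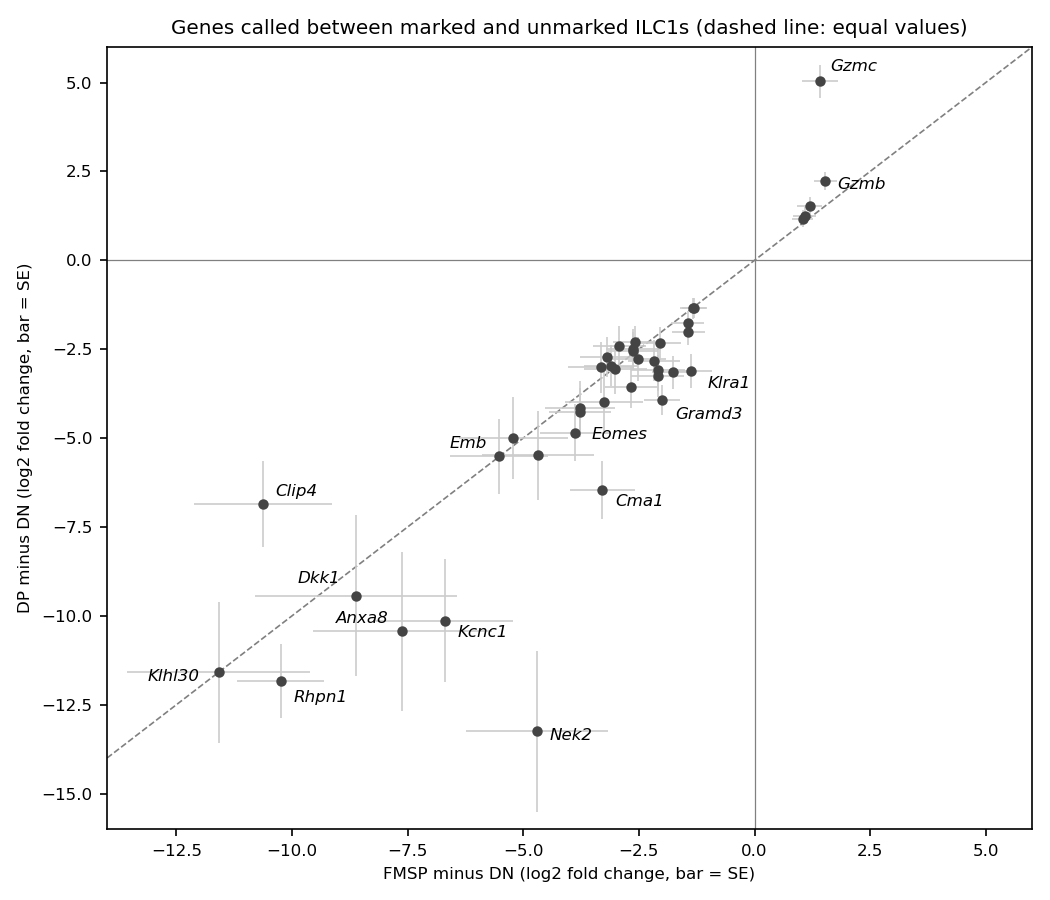
Log2 difference from DN of the 41 genes in FMSP (x) and in DP (y), with bars of 1 SE, a dashed line of equal values and 14 genes named. Both axes share the DN libraries, so the points near the line are a description. Gzmc lies far above the line and Cma1, Gramd3 and Klra1 lie below it. Points below -6 are genes with few or no counts in 1 marked population, whose fitted values depend on the prior count.

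Of 20 genes that mark liver ILC1s, none passed the test in either direction (edgeR), and the list median was 0.61 (0.55 without DN of mouse 2). With the mouse as a random effect in limma 1 was called, Cd200r2, higher in marked cells. Its summed level was 2891 to 5332 CPM in DN, 5420 to 7391 CPM in marked cells and 340 to 470 CPM in NK cells. Cxcr6, the chemokine receptor that holds cells in the liver sinusoids, stood at 830, 576 and 935 CPM in DN and 913 to 1642 CPM in marked libraries. Il7r, the interleukin-7 receptor, stood at 30.3 to 204 CPM in DN and 37.5 to 181 CPM in marked libraries (-0.17 ± 0.53, adjusted p = 0.996). Cd200r2 stood at 46.7 to 106 CPM in DN and 153 to 301 CPM in marked libraries without overlap (1.55 ± 0.59, adjusted p = 0.336, edgeR, and 1.45 with adjusted p = 0.00516 in limma).

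No cytokine, chemokine or TNF family ligand of 22 tested was called with all libraries (edgeR), with a median of 0.50. Without DN of mouse 2 the median was 0.21, and none was called. Ifng stood at 46 to 157 CPM in DN and 47.8 to 160 CPM in marked libraries (0.08 ± 0.41), and Tnf at 6.71 to 21.4 and 3.09 to 22.4 CPM (0.02 ± 0.67). Xcl1, a chemokine that attracts dendritic cells, stood at 427, 507 and 656 CPM in DN and 888 to 1285 CPM in marked libraries, without overlap. Its log2 difference was 0.97 ± 0.21 (adjusted p = 0.0834, edgeR), and 0.00873 with the mouse as a random effect in limma. Ccl5 stood at 2110 to 2332 CPM in DN and 2845 to 6279 CPM in marked libraries. It was called within mice 4 to 6 (0.52, adjusted p = 0.0451) and not with all libraries (0.79, adjusted p = 0.286). Of 22 genes of ITAM adaptors and activating signals, Sh2d1a was the only one called with all libraries (edgeR). The adaptor genes Tyrobp and Fcer1g stood at 831 to 989 and 879 to 1046 CPM in DN, below all marked libraries, at 1098 to 3123 and 1337 to 3057 CPM (adjusted p = 0.166 and 0.143). Fcer1g was called higher within mice 4 to 6 (0.71, adjusted p = 0.0473) and with the mouse as a random effect in limma (0.83, adjusted p = 0.0309), which also called Sh2d1a lower (-2.68, adjusted p = 0.0257).

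Markers of other cells moved with the groups only in part. No T cell gene of 17 tested was called with all libraries (edgeR), and the list median was -1.13 (-1.07 without DN of mouse 2). The fixed block called Cd28 lower (-1.19, adjusted p = 0.0367). The mouse as a random effect in limma called 4 lower, Trac (-2.05, adjusted p = 0.0399), Tcrg-C1 (-2.22, 0.00759), Cd5 (-4.73, 0.0252) and Trdc (-1.43, 0.0252). Summed T cell markers stood at 2649 to 3447 CPM in DN and 2198 to 3898 CPM in marked cells. Cd3e stood at 536, 180 and 165 CPM in DN, 32.4 to 304 CPM in FMSP and 14.6 to 62.4 CPM in DP (adjusted p = 0.315). Trdc was at -1.39 ± 0.27 (adjusted p = 0.0551, edgeR), and was called within mice 4 to 6 (-1.49, adjusted p = 0.0451) and without DN of mouse 4 (0.049). Summed hepatocyte markers stood at 2139 CPM in DN of mouse 2, 1653 and 3536 CPM in FMSP of mice 5 and 6, and 204 to 692 CPM in the other ILC1 libraries. Without these 3 libraries 8 genes were called, all among the 41. The part of hepatocyte and T cell RNA in the results was not tested.

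Among the 36 lower genes, DN cells held less than NK cells in 6, among them Cma1, Klra4, Klra8, S1pr5 and Borcs7, with and without DN of mouse 2 (edgeR). For S1pr5 the sort of NK cells on an S1pr5eGFP reporter can have set part of this difference. Over all genes 2.99% differed between DN and NK cells in either direction, and 2.14% without DN of mouse 2. DN cells held more than NK cells in 5 of the 36 with all DN libraries, among them Dkk1, Emb, Tead2 and Jpt2, and in 0 without DN of mouse 2. Marked cells held less than NK cells in 25 of the 36, where 5.76% of all genes differed in either direction (edgeR). The 36 were called on these same marked and DN libraries, so nothing is read from the counts in this paragraph.

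ATAC-seq gave a separate readout of open chromatin at these genes, for liver ILC1s against liver NK cells with 2 libraries each. It has no library that separates marked from unmarked cells. The sample labels call the ILC1s GzmC+GzmcFM+, whereas the series' design names a CD49a+ gate, and this was not resolved. Of 51292 peaks tested, 9583 differed (18.7%, edgeR), 5044 more open in ILC1s (9.83%) and 4539 in NK cells (8.85%). Without replicate 2 of the ILC1s 4298 peaks were called, and without replicate 1 or 2 of the NK cells 5753 or 6212. The 36 lower genes had 91 peaks at 33 genes. Of these, 31 were more open in NK cells and 2 in ILC1s, with a median of -0.42 log2 against 0.03 over all peaks with a gene. The 5 higher genes had 61 peaks, 9 more open in ILC1s and 7 in NK cells.

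The peak over the Gzmc window printed above, chr14:56234259-56235420, had 12.9 and 20.1 CPM in ILC1s and 5.87 and 4.50 CPM in NK cells. It was more open in ILC1s by 1.67 ± 0.27 log2 (adjusted p = 4.95e-08, edgeR). The peak over the printed Gzmb window did not pass (0.39 ± 0.20, adjusted p = 0.157). The other 3 peaks assigned to Gzmb did. They were a promoter peak at chr14:56260066-56261125 (0.68 ± 0.23, adjusted p = 0.0249) and intergenic peaks at chr14:56265911-56266734 (1.46 ± 0.23, adjusted p = 2.38e-08) and chr14:56275800-56276707 (0.89 ± 0.26, adjusted p = 0.00755). The Eomes promoter peak had 27.1 and 25.7 CPM in ILC1s and 64.1 and 76.2 CPM in NK cells, a difference of -1.41 ± 0.21 (adjusted p = 1.25e-09). The Cma1 promoter peak, which shares 223 bases with the printed window, was at -1.91 ± 0.35 (adjusted p = 2.38e-06). Of 3 peaks of S1pr5, a promoter peak was at -2.57 ± 0.34 (adjusted p = 3.51e-12), and another promoter peak (0.41 ± 0.26, adjusted p = 0.279) and an exon peak (0.65 ± 0.30, adjusted p = 0.119) did not pass. At the cell cycle genes the promoter peaks of Ccnb2 and Top2a did not pass, at 0.34 ± 0.22 and 0.14 ± 0.19 (adjusted p = 0.298 and 0.652), and of 50 peaks of the list 3 were more open in ILC1s and 1 in NK cells. Positions are in mm10.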

How the data were processed

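RNA was measured in 15 liver libraries and chromatin in 8 ATAC-seq libraries. The deposited RNA values are the authors' expected counts per gene, whole numbers for 35645 genes. The deposited ATAC values are the authors' counts per peak in 51412 shared peaks. Salmon 1.6, DESeq2, Bowtie2, SAMtools, MACS2 and mm10 come from the submitters' processing notes, and strand and the treatment of shared reads are not given in the sources used here. In 26 entries, with 0.265% of counts, the symbol had become a date, and they stayed in the fits unnamed.

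Counts were tested with edgeR 4.0.16 (R 4.3.3): filterByExpr at a minimum count of 10, TMM scaling, robust quasi-likelihood fits with 1 mean per population over all 15 libraries, and Benjamini-Hochberg adjustment over 17124 genes. The contrast was the mean of DP and FMSP minus DN, and a call means an adjusted p below 0.05. The 8 ATAC libraries were tested likewise, with 5609587 to 9957335 counts in the liver ones. Floors are 3 counts over the group and intervals are exact at 95%, and both cover counting error only, since amplified reads without molecular identifiers are not independent. Alternatives were DESeq2 1.42.0, limma 3.58.1, scaling, filter, mouse block and left-out libraries.

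The labels tie each mouse number to 1 animal, so numbers pair the populations. Deviations from the group means correlated with a median r of 0.227 (0.0702 to 0.469) over 8 pairs of ILC1 libraries from 1 mouse, and -0.0689 (-0.327 to 0.361) over 32 pairs from different mice. The consensus correlation within a mouse was 0.497 in limma, and the main fit had no term for the mouse. Mouse 2 gave 1 library, which a fixed block fits exactly, so it does not inform the blocked comparison.

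Genes named were up to 14 in each direction with the largest change among called genes at 10 CPM or more, with no overlap and no predicted symbol, genes called in both populations, members of the gene lists, and Gzmc, Gzmb and Eomes. Others are marked as named after their values were seen. Some genes counted in the totals are not reported here by name. The comparison, the members and the 33 gene lists were chosen with earlier results of these data known, so shares of list members are a description. The fits were tested on simulated data. Promoter sequences come from RefSeq (GRCm38.p6), matched by symbol.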

Additional observations from a re-analysis of the deposited data

Results flagged for a closer look

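Gzmc differed between DP and FMSP relative to DN, by 3.62 on the log2 scale in the test of the difference itself (edgeR). Gzmc defined the sort. Within groups of 4 libraries, 11 of 150 groups looked at, over 75 genes, had a library far from the other 3. The 150 include groups whose highest library was below 10 CPM, which could not be flagged. Chance gives about 1 in 20 for independent groups. These groups share libraries, so nothing is read from the count. In DP of mouse 3 the flagged values were Cd3e at 62.4 CPM, Ccnb1 at 27.4, S100a6 at 1098, Ccl5 at 6279 and Id2 at 3179 CPM. In FMSP of mouse 3 they were Tbx21 at 1059, S100a6 at 929 and Pcna at 81.6 CPM, the last below the other 3. In FMSP of mouse 6 they were Sh2d1a at 16.2 and Klrg1 at 82.0 CPM, and in DP of mouse 5 Klra8 at 14.2 CPM.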

How the results depend on the processing

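The count of 41 genes depended strongly on the fit and on single libraries. DESeq2 called 501 between marked and DN cells, 564 for DP, 242 for FMSP, 158 in both and 238 between DP and FMSP. With the mouse as a fixed block the counts were 22 for marked and 22 for DP, and with the mouse as a random effect in limma 90, 82 for DP, 11 for FMSP and 11 in both. A fit of only the 11 ILC1 libraries called 2, 4 for DP, 0 for FMSP (844 at an unadjusted p below 0.05, edgeR) and 0 in both. Library totals in place of TMM gave 21 for DP. Mice 4 to 6 alone gave 38 for DP, 3 for FMSP and 3 in both. Without the 3 libraries high in hepatocyte markers there were 8, with 0 for FMSP, 0 in both and 0 between DP and FMSP (1173 for FMSP and 518 between DP and FMSP at an unadjusted p below 0.05, edgeR). Leaving out each library in turn gave 14 to 120 for marked (81 without DN of mouse 4 and 120 without DN of mouse 6, 17 without DP of mouse 4), 5 to 23 for DP, 1 to 4 for FMSP and 1 to 4 in both. The block without DN of mouse 2, chosen after seeing the data, gave 26 for marked, 24 for DP, 3 for FMSP and 3 in both. None of the 41 genes changed direction between marked and DN cells in any fit that tested it. For ATAC the peak with the smallest p of each of these genes was followed, and none that was called changed direction. The direction of other calls was not followed. For ATAC, leaving out each liver library gave 4298 to 11425 peaks, and replicate numbers did not pair libraries (r from -0.120 to 0.179 over 12 pairs), with 9850 peaks called under a replicate block. The cause of these shifts was not tested. Only 3 DN libraries, 2 of them from mice with marked cells, limit every comparison.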
